A study of Mus musculus with 12 samples.

Results

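MicroRNA genes outside the miR-30 family were examined in ribosome profiling (Ribo-seq) libraries of mouse liver. The genes were chosen by symbol, from names starting with Mir and a digit or with Mirlet7, and by detection, with an RPKM above 0 in at least 3 of the 6 Ribo-seq libraries. Of 25029 genes listed under a name of their own, 138 met this rule: 135 microRNA genes and 3 host transcripts of microRNAs (Mir17hg, Mir22hg and Mir99ahg). The libraries came from 16-week-old male C57BL/6 mice, and both groups had eaten a high-fat diet for 8 weeks. The HFD group (n = 3 libraries) received that diet alone, and the LYC group (n = 3 libraries) received it with lycopene. The high-fat diet was thus common to both groups, and no library of mice on standard feed was analysed here. The labels and the methods of the study both say that digested Ribo-seq samples were pooled before ribosomes were pelleted, and the labels alone add pooling of the groups' RNA fragments before library preparation. The study nevertheless calls the 3 libraries of a group biological replicates, and the sources do not say which animals each library holds. The spread between the 3 libraries, on which each SD, SE and p rests, may thus be partly technical.

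MicroRNAs are short regulatory RNAs that are not translated. A primary transcript is cut by Drosha with Dgcr8 into a hairpin, the hairpin is cut by Dicer1, and 1 strand is loaded into an Argonaute protein. The loaded strand pairs through its seed, bases 2 to 8 from the 5′ end, with sites in messenger RNAs and lowers their translation or stability. In liver, miR-122 is the characteristic microRNA of hepatocytes, whereas miR-451a belongs to red blood cells and miR-223 to myeloid cells. In a Ribo-seq library, a read on a microRNA gene is thus not by itself evidence of a ribosome. It can come from the small RNA or, where the gene lies in an exon of a host gene, from the host transcript. The deposited values are per gene, so mature strand, hairpin and primary transcript cannot be told apart.

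The mature sequences of the genes on which the results turned were read from RefSeq (GRCm38.p6), in which 121 of the 138 genes had at least 1 mature sequence. Capitals mark the seed. The first set holds genes that were high in both groups or differed between them, with miR-15a, miR-101a, miR-146a, miR-152 and miR-181b, whose genes were not called or not tested, as strands to set beside their relatives. The arm shown is the one usually named as the guide strand.
miR-451a: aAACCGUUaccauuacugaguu
miR-16-5p: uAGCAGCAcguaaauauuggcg
miR-15a-5p: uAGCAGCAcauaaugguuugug
miR-21a-5p: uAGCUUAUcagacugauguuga
miR-34a-5p: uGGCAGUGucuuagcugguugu
miR-192-5p: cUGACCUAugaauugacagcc
miR-194-5p: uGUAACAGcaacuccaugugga
miR-148a-3p: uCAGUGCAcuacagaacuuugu
miR-152-3p: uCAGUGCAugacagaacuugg
miR-101a-3p: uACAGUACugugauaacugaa
miR-101b-3p: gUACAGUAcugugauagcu
miR-223-3p: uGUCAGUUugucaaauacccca
miR-802-5p: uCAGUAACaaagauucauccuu
miR-181a-5p: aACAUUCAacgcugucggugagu
miR-181b-5p: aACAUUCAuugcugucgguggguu
miR-146a-5p: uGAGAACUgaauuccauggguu
miR-146b-5p: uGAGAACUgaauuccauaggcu

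The second set holds let-7 strands, which share 1 seed and differ from let-7a-5p at 1 to 4 of 22 positions.
let-7a-5p: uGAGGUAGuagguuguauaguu
let-7b-5p: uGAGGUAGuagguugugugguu
let-7c-5p: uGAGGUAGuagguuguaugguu
let-7d-5p: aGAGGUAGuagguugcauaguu
let-7f-5p: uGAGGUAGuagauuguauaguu
let-7g-5p: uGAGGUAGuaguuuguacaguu
let-7i-5p: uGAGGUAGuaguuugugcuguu

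Grouping all RefSeq strands by seed gave 20 seeds shared by 2 or more of the genes. The mature sequence was identical to that of another locus for 21 of the genes, among them both miR-16 loci, both let-7c loci, both let-7f loci and both miR-194 loci. A short read of such a strand fits either locus, and how the authors' mapping divided these reads is not stated, so single values of these genes are uncertain. In the table, miR-101b-3p starts 1 base upstream of miR-101a-3p, and the strands share a run of 15 bases.

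The depth differed between groups. From the steps between RPKM values, the HFD libraries held 2726202, 4405541 and 834410 reads, and the LYC libraries 394461, 311050 and 412116 reads. On a gene of 85 bases, 1 read was worth 2.67 to 14.1 RPKM in HFD and 28.5 to 37.8 RPKM in LYC. All values of the 138 genes came out as whole reads to within 0.01 of a read. Intervals given below cover counting error only.

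Of 1218 matching symbols, 72 were above 0 in all 6 libraries, 15 in 5, 18 in 4 and 33 in exactly 3, the lowest number that met the rule. Just outside it stood 44 genes above 0 in 2 libraries, with a median of 4 reads over all libraries and a highest mean of 43.2 RPKM (Mir25). Just inside, the 33 genes had a median of 10 reads and a highest mean of 83.7 RPKM (Mir107). Of these 33 genes, 17 were detected in the 3 HFD libraries alone and 1 in the 3 LYC libraries alone, so their detection pattern alone fixed their direction. The other 949 genes were at 0 in every library, and 87 were above 0 in 1 library.

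As a share of reads on all listed genes, the 138 genes overlapped between the groups. This share was 1.64%, 1.52% and 0.789% in HFD1, HFD2 and HFD3, against 1.37%, 1.74% and 1.35% in LYC1, LYC2 and LYC3. The mean share was 1.31% ± 0.459 for HFD and 1.49% ± 0.221 for LYC (SD, n = 3). Shares and sums over several genes are given as descriptions, without a test. Small RNA genes other than microRNA genes include those of small nucleolar RNAs. They held 1.91% ± 0.292 of the reads in HFD and 7.65% ± 2.40 in LYC, without overlap. The 138 genes were also set against the reads on small RNA genes alone. This share was 41.4%, 43.4% and 31.8% in HFD and 10.5%, 20.7% and 10.8% in LYC, also without overlap. The 6 miR-30 genes, left out by the rule, held 0.0904% ± 0.0305 in HFD and 2.17% ± 0.315 in LYC.

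Within the reads of the 138 genes, several genes had shares that did not overlap between the groups. Mir16-1 held 35.3%, 23.6% and 27.8% of them in HFD, but 2.35%, 2.90% and 1.41% in LYC. Mir34a held 6.26% to 8.65% in HFD and 0.474% to 0.848% in LYC. In the opposite direction, Mir21a held 0.171% to 0.345% in HFD and 5.27% to 8.93% in LYC. For these genes, no library of one group reached the range of the other, and these shares do not depend on a scaling between libraries. Mir451a held 9.95% to 25.9% in HFD and 28.2% to 44.9% in LYC, and Mir122 held 1.78% to 2.17% and 2.27% to 2.91%. A share also rises when other members hold less, as Mir16-1 and Mir34a did in LYC. These smaller differences thus set no direction for Mir451a or Mir122.

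**Figure D1:**
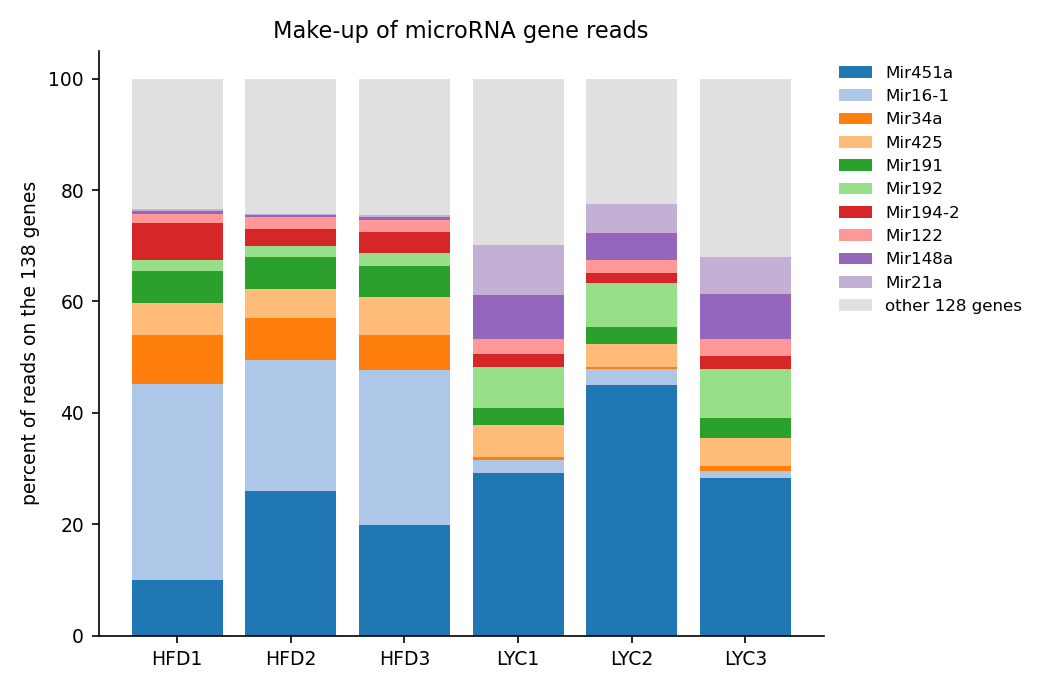
Share of the reads on the 138 genes that fell on each of 10 genes, in percent, for each Ribo-seq library; grey stands for the other 128 genes. Mir451a has the widest block in the 3 LYC libraries and in HFD2, and Mir16-1 in HFD1 and HFD3; the blocks of Mir16-1 and Mir34a are wider in HFD than in LYC, and those of Mir21a, Mir148a and Mir192 wider in LYC.

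Levels between genes were compared as RPKM, which is per length. The mean over 6 libraries passed 1000 RPKM for 21 genes and stayed under 100 RPKM for 69, and the 10 highest genes held 76.9% of the summed RPKM. Mir451a, the red blood cell microRNA that Ago2 rather than Dicer1 cuts, had the highest mean over the 6 libraries, at 19217, 50817 and 17561 RPKM in HFD and 49082, 97385 and 47148 RPKM in LYC. Mir16-1, of the miR-15/16 family that restrains cell cycle genes, was second by that mean, with HFD values of 52809, 35735 and 19059 RPKM. The order differed by group: the HFD mean of Mir16-1, 35868 RPKM, was above that of Mir451a, 29198 RPKM, whereas in LYC Mir16-1 had a mean of 3251 RPKM and Mir451a one of 64539 RPKM. Mir425 and Mir191, which lie together in an exon of Dalrd3 on chromosome 9, followed with 5132 to 9550 and 4907 to 10920 RPKM in HFD. Their LYC values, 7080 to 7963 and 5242 to 6473 RPKM, lay inside those ranges. Mir122 had 3746, 4639 and 2052 RPKM in HFD and 4801, 5358 and 5294 RPKM in LYC, and was the 10th by mean.

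**Figure D2:**
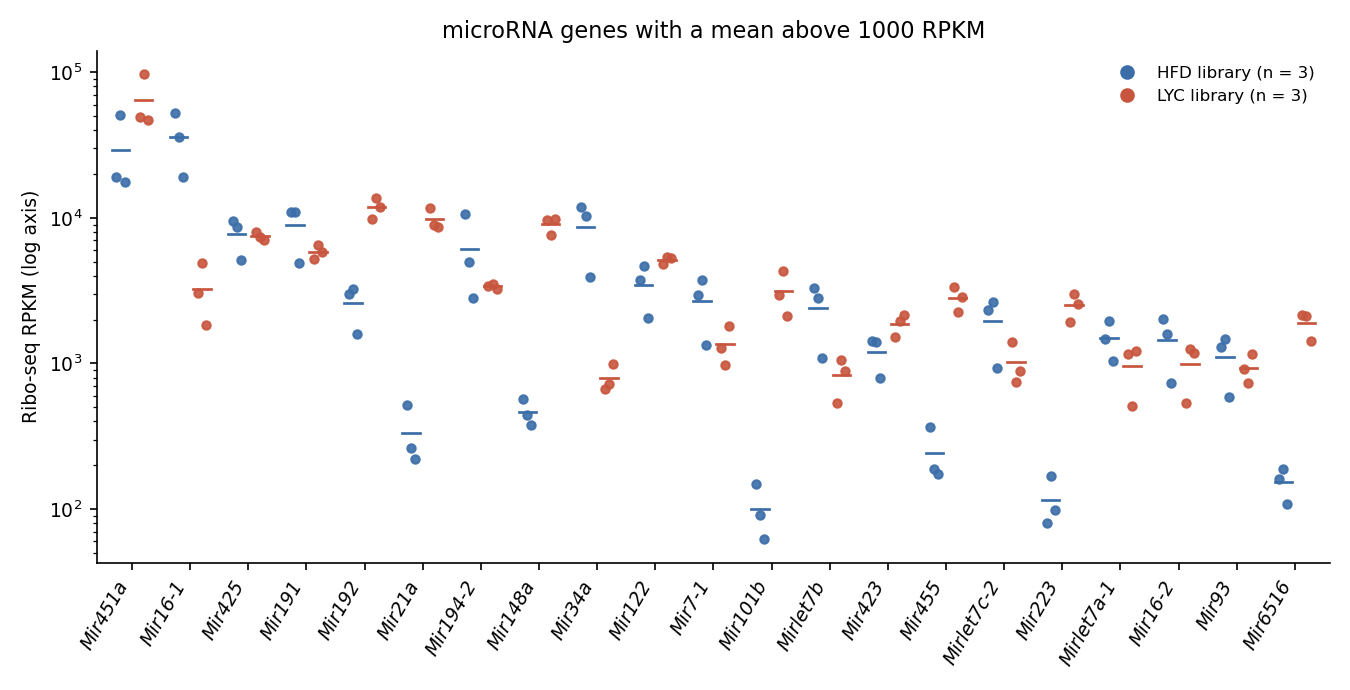
RPKM on a log axis for the 21 genes with a mean above 1000 RPKM; points are libraries (3 HFD, 3 LYC) and bars are group means. Mir192, Mir21a, Mir148a, Mir101b, Mir455, Mir223 and Mir6516 stand higher in LYC, Mir16-1 and Mir34a lower, and Mir425 and Mir191 overlap.

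LYC was compared with HFD for each gene by limma on log2(RPKM / TMM factor + 1), where TMM is edgeR's scaling between libraries. The call required a change of more than 1 on the log2 scale, up or down, together with a two-sided, unadjusted p under 0.01. The filter on low reads left 5776 genes of the whole table, and 56 of the 138 among them. Of the 56, 19 were called higher in LYC (33.9%) and 6 lower (10.7%), and the other 31 were not called. Of all genes tested, 5.38% were called higher and 8.28% lower. All 25 calls also had a Benjamini-Hochberg adjusted p of 0.0482 or less, and in all 25 the RPKM of the groups did not overlap. The groups did not overlap for 31 of the 56, or 55.4%, against 37.4% of all genes tested.

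Of the 56, 38 had a log2 fold change above 0 and 18 below, with a median of 0.79 where that of all genes tested was -0.23. This balance depended on the scaling. With TMM factors from microRNA genes alone, which moved the median of all genes to -0.96, 16 of the 56 were called higher and 16 lower, with a median of -0.02, where 1.73% of all genes were called higher and 34.5% lower. With the trend of fold change on gene length removed, 12 of the 56 were called higher and 19 lower, with a median of -0.48, where 6.51% of all genes were called higher and 6.06% lower. Under each of these scalings, genes that the all-gene scaling left uncalled, among them Mir191, Mir194-2, Mir16-2, Mirlet7a-1, Mirlet7b and Mirlet7c-2, were called lower, and Mir122, Mir101a and Mir146 changed sign. Without the filter, all 138 could be fitted, and 26 of the 138 were called higher and 24 lower, with a median of -0.02, where 2.27% of all 15749 genes were called higher and 5.57% lower. These counts cannot be read against those shares, since members needed reads in 3 libraries and the other genes in only 1, and the detection rule had fixed the direction of the 17 members seen in HFD alone. The 71 other small RNA genes tested had 43 higher and 6 lower calls and a median of 2.56, which moves with the members; its part in their result was not tested.

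**Figure D3:**
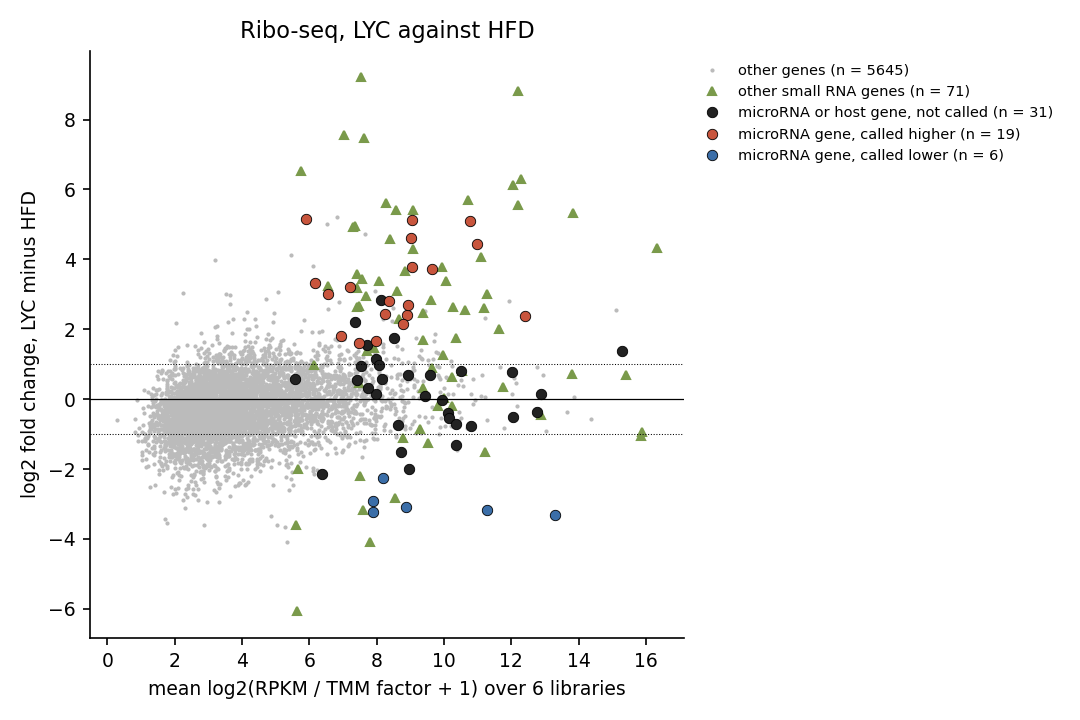
Log2 fold change (LYC minus HFD) against mean log2(RPKM / TMM factor + 1) over 6 libraries for the genes tested, with the 56 tested members (55 microRNA genes and the host transcript Mir17hg) marked by call, other small RNA genes as triangles and all other genes in grey; dotted lines mark changes of 1. The 19 higher calls lie between 1.61 and 5.17 and the 6 lower calls between -3.32 and -2.27.

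The sign of each of the 25 calls was the same in every alternative fit that included the gene. These fits reuse the same libraries, and the genes were chosen by the main fit, so this agreement is no independent support. The 6 lower calls (Mir16-1, Mir34a, Mir802, Mir3068, Mir181a-2 and Mirlet7d) were called in every such fit. Of these, Mir802, Mir3068, Mir181a-2 and Mirlet7d rested on low LYC counts, since 1 read on 85 bases was worth 28.5 to 37.8 RPKM there. Of the 19 higher calls, 11 were called in every such fit. Of the other 8, Mir192, Mir182 and Mir677 were called in 15 of 16 alternative fits, Mir190a and Mir1198 in 14 of 16, Mir210 in 13 of 16 and Mir22 in 11 of 13. Mir23a was called in only 9 of 16 and stood at 0.19 with the length trend removed.

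**Figure D4:**
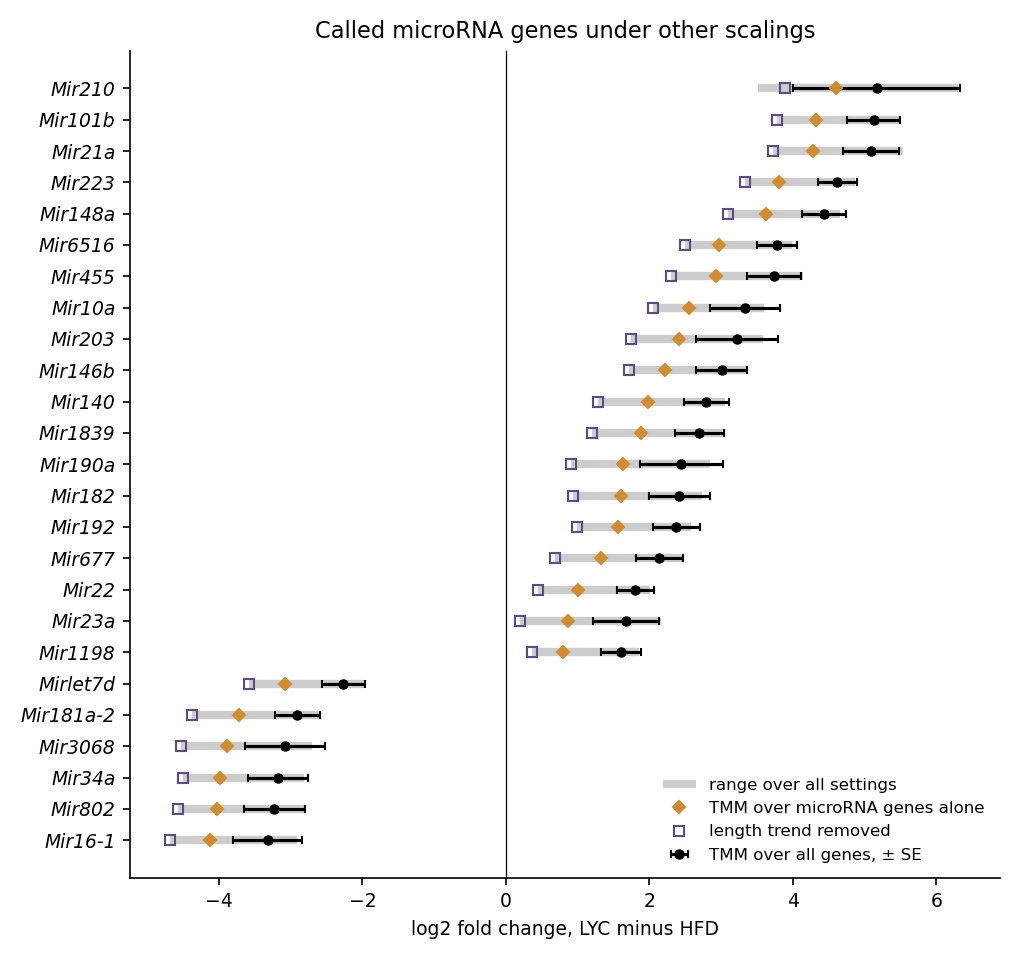
Log2 fold change (LYC minus HFD) of the 25 called genes with all-gene TMM scaling (black, ± SE, n = 3 against 3), with TMM from microRNA genes alone (diamonds) and with the length trend removed (squares); grey bars span all fits. No bar crosses 0, and the higher calls nearest 0 are Mir23a, Mir1198 and Mir22.

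Among microRNAs of hepatocytes, 8 of the list were members and 7 were tested, of which 3 rose (Mir148a, Mir101b, Mir192), 1 fell (Mir802) and 3 were not called (Mir122, Mir194-2, Mir101a). Of all genes tested, 5.38% were called higher and 8.28% lower. The median log2 fold change of the 7, which is the value of Mir122, was 0.78, against -0.23 over all genes tested. It turned to -0.03 with TMM from microRNA genes alone (-0.96 over all genes) and to -0.76 with the length trend removed (-0.03 over all genes). Mir148a (chr6:51269812-51269910, minus strand), known for restraining the low-density lipoprotein receptor in liver, had 574, 445 and 375 RPKM in HFD and 9654, 7631 and 9853 RPKM in LYC. Every LYC library lay above every HFD library, and the log2 fold change was 4.43 ± 0.30 (SE; adjusted p = 8.66e-05). Mir101b (chr19:29135279-29135375, plus strand, in an intron of Rcl1) had 147, 91.3 and 61.8 RPKM in HFD and 2953, 4342 and 2126 RPKM in LYC. It rose by 5.12 ± 0.37 on the log2 scale (SE; adjusted p = 0.000103).

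Mir101a, whose strand shares the 15-base run with that of Mir101b, had 331, 314 and 144 RPKM in HFD and 367, 310 and 322 RPKM in LYC. Its groups overlapped (log2 fold change 0.56 ± 0.33, SE, adjusted p = 0.276). Within single libraries, the RPKM ratio of Mir101b to Mir101a was 0.445, 0.290 and 0.428 in HFD and 8.06, 14.0 and 6.61 in LYC.

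Mir192 and Mir194-2, which lie next to each other on chromosome 19 and are common in liver and gut, had different values. Mir192 had 2980, 3242 and 1589 RPKM in HFD and 9827, 13690 and 11969 RPKM in LYC, with a log2 fold change of 2.38 ± 0.33 (SE; adjusted p = 0.00424). Mir194-2 had 10586, 5012 and 2815 RPKM in HFD and 3390, 3514 and 3273 RPKM in LYC, so that its groups overlapped (log2 fold change -0.51 ± 0.47, SE, adjusted p = 0.479). The ratio of Mir192 to Mir194-2 within a library was 0.281, 0.647 and 0.564 in HFD and 2.90, 3.90 and 3.66 in LYC. Mir194-1, which has the same mature strand as Mir194-2, had 11 reads over the HFD libraries and 3 over the LYC libraries.

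Mir122 itself was not called. Its LYC values lay above its HFD values, but the log2 fold change of 0.78 ± 0.33 (SE) had an adjusted p of 0.146. Its sign depended on the scaling, at -0.03 with TMM from microRNA genes alone and -0.76 with the length trend removed. Mir802 (chr16:93369720-93369816, plus strand), a microRNA known to be raised in obese mouse liver, had 722, 1547 and 395 RPKM in HFD and 78.4, 99.4 and 50.0 RPKM in LYC. The LYC values rested on 8 reads in all, and the log2 fold change was -3.22 ± 0.43 (SE; adjusted p = 0.00336). Of the 6 hepatocyte marker genes (albumin among them), none was called, and their summed RPKM was 39835 to 43629 in HFD and 25723 to 36177 in LYC, without overlap. Albumin made up most of this sum, at 25585 to 29641 RPKM in HFD and 13379 to 22447 RPKM in LYC. Ttr, Serpina1c and Fgb were also lower in LYC without overlap. Apoa1, of high-density lipoprotein, stood the other way, at 3606 to 4462 and 4842 to 5290 RPKM, and Cyp2e1 overlapped. The part of this lower sum in the values of the hepatocyte microRNAs was not tested. In bulk liver, fewer cells of a type and less RNA per cell cannot be told apart.

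Among microRNAs tied to lipid metabolism, 8 were members but only 2 passed the filter, and these went opposite ways. Mir21a (chr11:86584067-86584158, minus strand, in an exon of Vmp1), a microRNA raised in injured and inflamed tissue, had 522, 262 and 221 RPKM in HFD and 11739, 8946 and 8625 RPKM in LYC. It rose by 5.09 ± 0.39 on the log2 scale (SE; adjusted p = 0.000138). Its host gene Vmp1, which serves autophagy, had 24.7 to 34.4 RPKM in HFD and 7.84 to 11.3 RPKM in LYC and fell by 1.39 on the log2 scale (adjusted p = 0.0184).

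Mir34a (chr4:150068454-150068555, plus strand), a p53 target known to repress Sirt1, had 11795, 10379 and 3913 RPKM in HFD and 671, 725 and 999 RPKM in LYC. The groups were clear of each other, and Mir34a fell by 3.17 on the log2 scale (SE 0.42; adjusted p = 0.00336). The RPKM ratio of Mir21a to Mir34a inside a library was 0.0443, 0.0252 and 0.0566 in HFD but 17.5, 12.3 and 8.63 in LYC.

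The other lipid-linked members were too low for the filter. Mir107 and Mir103-1, of the family known for its effect on insulin sensitivity, lie in introns of Pank1 and Pank3. They had 142 and 107 reads over the HFD libraries, and every LYC library was at 0. Had each LYC library held 3 reads, the floor used here, Mir107 would still be at least 1.78-fold lower and Mir103-1 at least 1.36-fold lower by mean RPKM. Both met the detection rule through HFD alone, which fixed their direction. The second deposited table, described last, held counts of both genes in every LYC library. Mir103-2, with the same guide strand as Mir103-1, had 65 HFD reads and 7 LYC reads, which overlapped as RPKM (68.2 to 116 and 0 to 118). Mir29b-1 was at 0 in LYC with 31 HFD reads, Mir29a had 37.5 to 85.1 RPKM in HFD and 110 to 230 RPKM in LYC, and Mir378a overlapped.

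Both miR-16 loci and Mir15a carry one seed. Mir16-1 (chr14:61631880-61631972, minus strand, in an intron of Dleu2) had 3053, 4874 and 1826 RPKM in LYC, below every HFD library, and a log2 fold change of -3.32 ± 0.48 (SE; adjusted p = 0.00497). Mir16-2 (in Smc4 on chromosome 3) had 2023, 1603 and 732 RPKM in HFD and 534, 1252 and 1175 RPKM in LYC, and was not called (log2 fold change -0.39 ± 0.43, SE, adjusted p = 0.556). The mature strands are the same, and the sum over both loci does not depend on how reads were divided between them.

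Both loci together had 5103, 3476 and 1842 reads per 1000000 reads of the library (RPM) in HFD and 335, 572 and 281 in LYC, without overlap. Mir15a, next to Mir16-1 on chromosome 14, had 57.1 to 131 RPKM in HFD and 116 to 181 RPKM in LYC and did not pass the filter. Dleu2 itself was covered by 33 reads in HFD and 6 in LYC and was not tested.

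The let-7 family, known for holding cells in a differentiated state, had 12 genes under let-7 symbols or Mir98 among the 138, and 9 were tested. A further gene, Mir7j, which RefSeq gives as let-7j with a seed that differs from theirs, was not in this list. It had 68.8 to 115 RPKM in HFD and 52.7 to 139 RPKM in LYC and did not pass the filter. Only Mirlet7d (chr13:48536012-48536114, minus strand) was called: it had 627, 908 and 524 RPKM in HFD and 148, 93.6 and 141 RPKM in LYC, a fall of 2.27 on the log2 scale (SE 0.30; adjusted p = 0.00334). No other let-7 gene was called in either direction, where 5.38% of all genes tested were called higher and 8.28% lower. The median log2 fold change over the 9 was 0.08, against -0.23 over all genes tested. Both values depended on the scaling. With TMM from microRNA genes alone, 4 of the 9 were called lower and their median was -0.73 (-0.96 over all genes), and with the length trend removed 5 were called lower and their median was -1.28 (-0.03 over all genes). In the other direction, Mirlet7f-1 was called higher in 3 of 16 alternative fits, namely DESeq2 (2.42), edgeR on recovered reads (2.16) and the fit without LYC2. Mirlet7b, the highest of the family by mean over the 6 libraries and in HFD, but below Mirlet7a-1 and Mirlet7c-2 by mean in LYC, had 3301, 2812 and 1086 RPKM in HFD and 537, 1059 and 885 RPKM in LYC. Its groups did not overlap, but the difference was not called (log2 fold change -1.30 ± 0.42, SE, adjusted p = 0.0784). That depended on the setting, since Mirlet7b was called lower in 7 of 16 alternative fits, with -1.44 under total library size and -1.26 in DESeq2.

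The neighbours of Mirlet7d on chromosome 13 differed from it in value. Mirlet7a-1 had 1463, 1956 and 1045 RPKM in HFD and 1160, 513 and 1213 RPKM in LYC, and Mirlet7f-1 had 94.3 to 232 RPKM in HFD and 72.2 to 1139 RPKM in LYC. Both overlapped between groups. Divided by Mirlet7a-1 of the same library, Mirlet7d stood at 0.428, 0.464 and 0.501 in HFD and at 0.127, 0.183 and 0.117 in LYC. Mirlet7c-2, Mirlet7c-1, Mirlet7g, Mirlet7i and Mirlet7f-2 also overlapped, with log2 fold changes from -0.72 to 2.20. Mirlet7a-2, Mirlet7e and Mir98 did not pass the filter. The 12 genes together had 866, 993 and 428 RPM in HFD and 629, 331 and 548 in LYC, which overlapped.

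**Figure D5:**
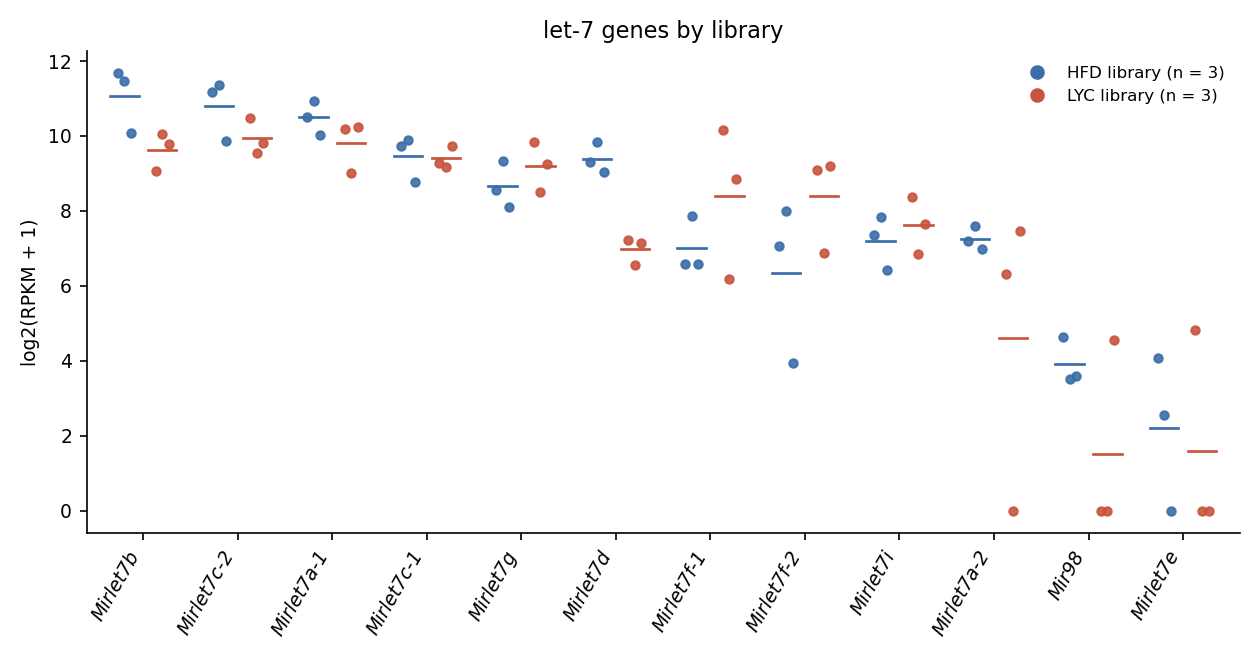
The 12 let-7 genes as log2(RPKM + 1) by library, ordered by mean RPKM; points are the 3 HFD and 3 LYC libraries, bars are means of the log values, and points at 0 are libraries with no read. Mirlet7d and Mirlet7b show no overlap between the groups, and Mirlet7a-2, Mir98 and Mirlet7e have LYC libraries at 0.

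Of the blood and immune list, 7 genes were members and 4 were tested, with 2 called higher and a median log2 fold change of 2.19, where 5.38% of all genes tested were called higher and their median was -0.23. The list's median was 1.39 with TMM from microRNA genes alone (-0.96 over all genes) and 0.80 with the length trend removed (-0.03 over all genes), with 2 called higher under both. Mir223 (chrX:96242817-96242926, plus strand) had 80.0, 169 and 98.1 RPKM in HFD and 1936, 3010 and 2581 RPKM in LYC, and rose by 4.62 ± 0.27 on the log2 scale (SE; adjusted p = 4.71e-05), the smallest p of the 56. Mir146b, induced by inflammatory signalling, had 50.5, 35.4 and 22.0 RPKM in HFD and 163, 354 and 289 RPKM in LYC, and rose by 3.01 ± 0.36 (SE; adjusted p = 0.00178). Mir146, the table's symbol for miR-146a, shares the seed of Mir146b and was not called (log2 fold change 0.69 ± 0.34, SE, adjusted p = 0.201).

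No myeloid marker gene was called. Of 8 in the list, 5 were tested, and the RPKM summed over all 8 was 104 to 139 in HFD and 61.8 to 132 in LYC. Lyz2, the lysozyme of myeloid cells, had 29.5 to 57.6 RPKM in HFD and at most 27.4 RPKM in LYC, without overlap, and was not called (log2 fold change -1.16, adjusted p = 0.0997). Csf1r, the receptor of a macrophage growth factor, was also lower in LYC without overlap and not called (log2 fold change -0.57, adjusted p = 0.250), and Clec4f, Adgre1 and Cd68 overlapped. The other 3, the neutrophil genes S100a8 and S100a9 and Itgam, did not pass the filter. Itgam had 8 reads in HFD and none in LYC. S100a8 had 0, 0.579 and 0 RPKM in HFD and 12.9, 8.20 and 6.19 RPKM in LYC, from 1 and 4 reads, a rate ratio (LYC over HFD) of 28.5 with an exact 95% counting interval of 2.82 to 1404. S100a9 had 0.704, 0.871 and 0 RPKM in HFD and 0, 18.5 and 4.66 RPKM in LYC, which overlapped, with a rate ratio of 9.50 (1.61 to 64.9). The part of myeloid cells in the Mir223 result was not tested.

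Mir451a overlaps Mir451b on the opposite strand, and the strand setting of the counting is not stated. It was not called, with a log2 fold change of 1.38 ± 0.50 (SE, adjusted p = 0.105) and overlapping groups. It was called higher in 4 of 16 alternative fits, namely DESeq2 (1.48) and edgeR on recovered reads, the replicate block and the fit without HFD2 (1.80), and had -0.12 with the length trend removed. Mir144, its neighbour in the same red cell transcript, had no HFD read and 1, 1 and 2 LYC reads. It met the detection rule through those 4 reads, which fixed its direction. Mir486, also of red cells, had 1 read in HFD and 6 in LYC, and Mir155, of activated immune cells, 19 and 1. Erythroid marker genes overlapped as a sum, at 634 to 1433 RPKM in HFD and 847 to 994 RPKM in LYC, and 3 of 8 were tested, none of which was called. Alas2, the heme synthesis enzyme of red cell precursors, was higher in LYC without overlap, at 38.7 to 56.9 RPKM in HFD and 73.0 to 79.6 RPKM in LYC (log2 fold change 0.85, adjusted p = 0.0562), and Hba-a1, with 30 and 6 reads, was higher without overlap. The globin genes Hba-a2 and Hbb-bs, which make up most of the sum, overlapped. The part of red cells in the values of Mir451a and Mir144 was not tested.

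Endothelial and stromal microRNAs were sparse, and Mir126a, Mir143 and Mir145a were members but none passed the filter. Mir126a had 18 reads in HFD and 7 in LYC, Mir143 had 4 and 5, and Mir145a had 4 and none. The endothelial markers summed to 26.3 to 42.2 RPKM in HFD and 9.73 to 39.3 RPKM in LYC, with 1 of 4, Pecam1, called lower, and the stromal markers overlapped. The 4 cholangiocyte markers, none of which passed the filter, summed to 4.36 to 5.09 RPKM in HFD and 0.775 to 2.34 RPKM in LYC, without overlap. Of these, Krt7, Krt19 and Epcam had 16, 6 and 10 reads in HFD and were at 0 in LYC, and Sox9 overlapped. The part of these cells in the members' values was not tested.

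In the miR-181 family, known in lymphocyte development, 5 genes were members and 1 was tested. Mir181a-2 (chr2:38852735-38852810, plus strand, opposite to Nr6a1) had 941, 663 and 505 RPKM in HFD and 100, 84.6 and 63.9 RPKM in LYC, and fell by 2.91 on the log2 scale (SE 0.32; adjusted p = 0.00117). Its neighbour Mir181b-2 had 213, 203 and 69.7 RPKM in HFD and 1 read in LYC. It met the detection rule through its HFD reads, so its direction was fixed by that choice. The 5 genes together had 103, 78.5 and 50.3 RPM in HFD and 17.7, 6.43 and 17.0 in LYC. This sum shares that limit, as it takes in members that met the rule mainly through their HFD reads. In LYC the 5 genes held only 7, 2 and 7 reads together, so the call of Mir181a-2 rested on few LYC reads. The 4 lymphocyte markers, none of which passed the filter, summed to 3.66 to 4.46 RPKM in HFD and 0.966 to 2.77 RPKM in LYC, and their part in the miR-181 values was not tested.

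The seed shared by Mir148a and Mir152 had higher RPKM in LYC at both genes. Mir152 (in Copz2) had 5.02, 0 and 0 RPKM in HFD, which is 1 read, and 174, 264 and 399 RPKM in LYC, and it did not pass the filter. It met the detection rule through its LYC reads, so its direction was fixed by that choice. Both genes together had 57.2, 44.0 and 37.2 RPM in HFD and 968, 775 and 1005 in LYC. By contrast, the family of Mir17, Mir20a and Mir93, linked to cell growth, overlapped with 68.3 to 194 RPM in HFD and 109 to 170 in LYC.

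The 8 higher calls with the smallest p also took in Mir6516, Mir455 and Mir140. Mir6516 (chr11:117077348-117077457, plus strand, in an intron of Snhg20) had 160, 188 and 109 RPKM in HFD and 2143, 2104 and 1434 RPKM in LYC, a log2 fold change of 3.78 ± 0.28 (SE; adjusted p = 0.000109). Mir455 had 367, 188 and 175 RPKM in HFD and 3370, 2274 and 2841 RPKM in LYC (log2 fold change 3.74 ± 0.38, SE). Mir140, known from cartilage and lying in an intron of Wwp2, had 173, 152 and 85.6 RPKM in HFD and 761, 1148 and 659 RPKM in LYC (log2 fold change 2.79 ± 0.31, SE). In all of them, each LYC library exceeded each HFD library.

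Mir3068 (in an intron of Alkbh1) had 1853, 2256 and 713 RPKM in HFD and 321, 122 and 92.1 RPKM in LYC, and fell by 3.08 on the log2 scale (adjusted p = 0.0114). The higher calls not described so far were Mir1839, Mir22, Mir10a, Mir677, Mir1198, Mir182, Mir203, Mir210, Mir190a and Mir23a, with log2 fold changes of 1.61 to 5.17. Mir210, induced by low oxygen, had the largest of these with the widest error (5.17 ± 1.16, SE), and HFD3 was at 0. Its value ranged from 3.51 to 6.30 over the alternative fits, with 3.98 in DESeq2 and 3.75 in edgeR on recovered reads. Mir203 overlaps a second small RNA gene, so its reads could belong to either. In all, 6 members overlapped another annotated small RNA gene on either strand, and the same limit holds for each of them.

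By position, 58 of the 138 genes lay in introns of a host gene, 18 in exons and 37 between genes, and 25 had no position in the table used. Of the tested ones, 11 of 23 in introns were called higher and 3 lower, 3 of 11 in exons were called higher and none lower, and 4 of 19 between genes were called higher and 3 lower. Over all tested members these shares were 33.9% and 10.7%, and over all genes tested 5.38% and 8.28%. Rcl1, host of Mir101b, had 48.4 to 60.1 RPKM in HFD and 35.0 to 52.0 RPKM in LYC and was not called (log2 fold change -0.14 ± 0.25, SE, adjusted p = 0.741). Atp5b, host of Mir677, had a log2 fold change of 0.91 ± 0.24 (SE), where Mir677 had 2.14 ± 0.33 (SE). Wwp2, host of Mir140, had -0.29 ± 0.46 (SE). Across 53 tested genes with a RefSeq hairpin, GC content and log2 fold change had a Pearson r of 0.03, which is across genes that share the same 6 libraries.

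Besides Mir107, Mir103-1 and Mir29b-1, 14 members were at 0 in all LYC libraries: Mir138-1, Mir96, Mir301, Mir351, Mir185, Mir193a, Mir125b-2, Mir3105, Mir145a, Mir466c-1, Mir130a, Mir669b, Mir1191 and Mir99ahg. In all, 17 members (12.3%) were above 0 in every HFD and no LYC library, against 9.1% of the 12503 genes above 0 in at least 3 libraries. Their HFD reads numbered 3 to 142, and only Mir107 and Mir103-1 exceeded in HFD the level that 3 reads would give in each LYC library. The other 15 did not exceed that level, so no lower bound on a fold difference is given for them, and none of them was tested.

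Of 36 genes that make and use microRNAs and are listed in the table, 24 were tested, of which 2 rose and none fell, where 5.38% of all genes tested rose and 8.28% fell. Their median was -0.24 on the log2 scale, and that of all genes tested -0.23. Dis3l2, an exonuclease that degrades uridylated let-7 hairpins, had 2.70, 3.41 and 3.83 RPKM in HFD and 5.67, 14.4 and 11.6 RPKM in LYC, and rose by 1.46 (adjusted p = 0.0333). Hnrnpa2b1, an RNA-binding protein that promotes the processing of some primary transcripts, had 60.5, 43.5 and 54.1 RPKM in HFD and 89.0, 151 and 87.3 RPKM in LYC, and rose by 1.14 (adjusted p = 0.0341). Without HFD2 neither was called, and without HFD1 only 1 processing gene was.

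The Argonaute genes Ago1 and Ago2 had lower values in LYC without a call. Ago3 and Ago4 overlapped between the groups and were below the filter. Ago2, the Argonaute that can cut its target, had 4.16, 6.53 and 4.63 RPKM in HFD and 2.53, 2.80 and 3.32 RPKM in LYC (log2 fold change -0.52, adjusted p = 0.268). Ago1 had a log2 fold change of -1.08 (adjusted p = 0.0752), and Dicer1 one of -0.44 (adjusted p = 0.511). Drosha and Dgcr8 were below the filter.

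The second deposited table, labelled RNA-seq, holds counts for the same genes but is not independent of the Ribo-seq table. Each of its libraries had a best match among the Ribo-seq libraries, with a Pearson r across 15460 genes of 0.952 to 0.967, where other pairs had 0.796 to 0.937. The LYC libraries matched their own number, but HFD1, HFD2 and HFD3 of this table matched Ribo-seq HFD2, HFD3 and HFD1. In edgeR's quasi-likelihood test, 88 members were tested, of which 41 were called higher and 14 lower, where 6.94% of all 5921 genes tested were called higher and 11.0% lower. Its log2 fold changes were 4.77 for Mir21a, 4.77 for Mir148a, -2.95 for Mir16-1 and 0.06 for Mir122. Mir16-2 had -2.74 there and -0.39 in the Ribo-seq table, and Mir101a 2.39 and 0.56. Mir107, at 0 in every LYC library of the Ribo-seq table, had counts of 26, 17 and 30 in the LYC libraries of the second table and 313, 19 and 219 in its HFD libraries, with a log2 fold change of 0.28 (adjusted p = 0.640 by edgeR). Mir103-1 had 81, 65 and 114 LYC counts there and a log2 fold change of 0.97. Without TMM factors, scaled by library totals alone, the median of all genes moved from -0.21 to -1.11, and Mir107 had -0.60, Mir103-1 0.08 and Mir122 -0.86.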

How the data were processed

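For both tables the authors used cutadapt and bowtie2 to clean the reads, STAR for alignment (GRCm38/mm10) and FANSE2 to quantify genes; versions, annotation and read lengths are not given in the sources used here. They deposited RPKM values for Ribo-seq and counts for the table labelled RNA-seq. The unit differed from the planned counts for Ribo-seq, so limma 3.58.1 was run on log2(RPKM / TMM factor + 1), with a mean-variance trend. Whole reads were recovered from the RPKM steps and the second table's gene lengths, and gave the TMM factors and the filter (filterByExpr, edgeR 4.0.16). All genes were fitted together, and p-values were adjusted over all of them by Benjamini-Hochberg. The scripts were tested on simulated data. Named genes are the 10 with the highest mean, up to 8 calls per direction with the smallest p and no overlap, members at 0 in one group, the listed families, and called processing genes; Mir25, Mir152 and others outside this rule were named after their values were seen. Members and lists were chosen with earlier results of these data known. A log2 fold change with 1 added understates changes of low genes. Alternatives included DESeq2 1.42.0. Sequences and positions come from RefSeq, in which 113 members had a hairpin. No value column was left unmapped. Software also included R 4.3.3 and Python 3.11.15.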

Additional observations from a re-analysis of the deposited data

How the results depend on the processing

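Depth limits the low genes: 1 read on 85 bases was worth at least 28.5 RPKM in LYC, and 82 of the 138 genes did not pass the filter. The number called higher, 19, was 12 with the length trend removed and stayed within 1.5 times under the other settings, at 16 to 28 when each library was left out. The number called lower, 6, was 16 with TMM from microRNA genes alone, 24 without the filter and 19 with the length trend removed. Without the filter, the genes added include 17 seen in HFD alone, whose direction the detection rule had fixed. The number was 6 to 14 when each library was left out, at 10 without LYC1, 10 without LYC2 and 14 without LYC3, where more genes passed the filter (73, 75 and 73 against 56).

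The median log2 fold change, 0.79, was -0.0190 with TMM from microRNA genes alone, -0.0192 without the filter and -0.48 with the length trend removed, and 0.46 to 0.96 when each library was left out. Processing genes called, 2, were 1 with total library size, 7 with TMM from microRNA genes alone, 1 with a pseudocount of 10 and 0 at p below 0.001. They were 0 to 3 when each library was left out, at 1 without HFD1 and 0 without HFD2. With TMM from microRNA genes alone, 36.2% of all genes tested were called, so the 7 are no result about processing genes. The LYC share of reads, 1.49%, was 3.65% with miR-30 included. In the second table, the 14 lower calls were 24 with total library size and 9 to 19 when each library was left out (9 without HFD3). With the length trend removed, Mir425 (0.13) and Mirlet7c-1 (0.08) were called lower, at -1.28 and -1.28. The cause of these changes was not tested. With the replicate block 22 were called higher and 7 lower; same-numbered libraries had correlations of 0.11, 0.03 and 0.01 of their deviations, so the numbers do not pair them.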
